A study of Mus musculus with 10 samples.

Results

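The replication-dependent histone genes were followed across 10 microarrays of haematopoietic stem cells (HSCs) from adult mouse bone marrow. Their members were all probe sets whose gene symbols, single or any of several, follow the names of the H1, H2A, H2B, H3 and H4 cluster genes (symbols that start with H1f, H2ac, H2bc, H3c or H4c and a digit). The rule found 56 of the 23410 probe sets with a gene symbol, 30 with 1 symbol and 26 with several. It also took in H1 genes that are not made in step with replication: H1f7 of male germ cells, H1f8 of the oocyte and the replacement variant H1f10.

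Of the 10 arrays, 5 came from Sox17-transgenic mice and 5 from wild-type littermates, all 8 weeks old. The transgenic mice carried both (tetO)7CMVSox17-IRES-NucEGFP, which places Sox17 and a nuclear green fluorescent protein under a tetracycline operator, and, on a B6.Cg background, the allele Gt(ROSA)26Sortm1(rtTA*M2)Jae, which expresses the tetracycline-controlled activator from the ubiquitous ROSA26 locus. The littermates are labelled wild type. Both groups drank doxycycline at 2 mg/ml for 5 days, the agent that turns the transgene on. Each array holds RNA of 10000 cells sorted as CD150+, CD48-, Lineage-, Sca1+ and cKit+. The labels call the aliquots independent without tying them to single animals. The p-values therefore set a group difference only against the variation of these arrays within a group, and that variation may be technical.

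Core histones H2A, H2B, H3 and H4 form the protein spool of the nucleosome, and H1 binds the linker DNA between nucleosomes. The cluster genes that encode most of them are transcribed in S phase, when new chromatin is assembled. Their messenger RNAs are the one large class that ends in a conserved stem-loop in place of a poly(A) tail; the stem-loop is bound by Slbp. Adult HSCs are mostly quiescent, so few of them are in S phase at a given time. A few cluster genes, H1f2, H2bc4 and H2bc21 among them, are also known to give transcripts with a poly(A) tail.

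The promoters of the genes whose levels varied most or in opposite directions on these arrays are shown first. Each is the 150 bases before the RefSeq start of the gene on GRCm38.p6, written 5′ to 3′ on the gene's strand, with capitals on matches on either strand. The motifs searched were the TATA box with the letters TATAAA, the CCAAT box, the octamer with the letters ATTTGCAT, the H1 box with the letters AAACACA, the core of an H4 element with the letters GGTCC, and a SOX core with the letters AACAAT; no printed matches overlap each other. H4c4 and H4c6 encode H4, H2ac4 encodes H2A, H2bc3 encodes H2B, and H1f5 and H1f2 encode linker histones.
H4c4 (chr13:23581418-23581567, plus strand): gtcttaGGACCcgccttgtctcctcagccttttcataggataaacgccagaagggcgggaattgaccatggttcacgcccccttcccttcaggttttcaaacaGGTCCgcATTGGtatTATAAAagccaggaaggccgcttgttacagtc
H4c6 (chr13:23551669-23551818, minus strand): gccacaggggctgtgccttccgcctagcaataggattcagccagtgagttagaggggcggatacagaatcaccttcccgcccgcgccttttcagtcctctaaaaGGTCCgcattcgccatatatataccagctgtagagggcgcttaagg
H2ac4 (chr13:23750938-23751087, plus strand): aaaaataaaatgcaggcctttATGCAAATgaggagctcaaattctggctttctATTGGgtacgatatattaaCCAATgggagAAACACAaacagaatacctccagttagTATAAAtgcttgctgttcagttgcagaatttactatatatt
H2bc3 (chr13:23746584-23746733, plus strand): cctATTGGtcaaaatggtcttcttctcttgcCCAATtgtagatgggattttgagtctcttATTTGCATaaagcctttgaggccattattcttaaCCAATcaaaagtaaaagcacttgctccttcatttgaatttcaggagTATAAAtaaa
H1f5 (chr13:21780626-21780775, minus strand): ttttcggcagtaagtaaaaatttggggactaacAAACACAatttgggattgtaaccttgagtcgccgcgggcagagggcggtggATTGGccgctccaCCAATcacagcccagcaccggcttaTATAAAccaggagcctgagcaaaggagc
H1f2 (chr13:23738657-23738806, plus strand): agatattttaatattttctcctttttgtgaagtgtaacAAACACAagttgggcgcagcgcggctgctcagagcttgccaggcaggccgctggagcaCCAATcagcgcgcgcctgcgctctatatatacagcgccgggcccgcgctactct

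The classes differed in these letters. In the 250 bases before the start, CCAAT or its complement was found in all 17 H2A and all 14 H2B genes of the RefSeq table, against 37.5% of all 27025 genes with a promoter there. The octamer, the motif of the factor Oct1 that is known from H2B promoters, was found in 7 of 14 H2B and 6 of 17 H2A genes and in 0 of the H1, H3 and H4 genes, against 1.81% of all genes. GGTCC was found in 10 of 11 H4 genes, against 42.9% of all, and the H1 box in 5 of 10 H1 genes, against 7.2% of all. A TATA box was found in 28 of the 62 histone genes with a window (14.3% of all genes) and the SOX core in 4 of them (10.9% of all). The printed H1f5 and H1f2 windows both hold an H1 box and a CCAAT box, and H1f5 alone of the pair holds TATAAA. These genes read in opposite directions between the arrays described next, and whether the letters had a part in that was not tested. A match is a description of letters and no match says only that they are not in that window.

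The arrays fell into 2 sets that did not follow the groups, and most histone probe sets read higher on one set. Set A held transgenic arrays 1, 2 and 3 and wild-type arrays 1 and 2, and set B the other 5 arrays. The sets were first seen in these data, so their difference is described without a test. They came from the leading principal component after subtraction of each group's mean. With the 56 members left out, this component parted the same arrays. It ran from 0.24 to 0.38 over set A and from -0.50 to -0.20 over set B, and held 38.2% of the variance of the other probe sets. That shows only that the split does not rest on the histone probe sets, and it is no separate support for the sets. Transgenic array 4 alone read as male: Xist, the RNA of the inactive X, was 4.32 against 10.80 to 11.40 on the other arrays, and the Y-linked Eif2s3y 9.23 against 2.57 to 2.87.

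On set A, 52 of the 56 histone probe sets averaged higher than on set B, as 50.0% of all probe sets did, with a median difference of 1.43 log2 units. Over all probe sets tested the median difference was -0.00. All 5 arrays of set A lay above all 5 of set B in 40 of the 56, while 3.92% of all probe sets did so. A difference above 1 log2 unit was seen in 37, against 0.560% of all. Among the 25 probe sets most raised on set A, 15 were histone probe sets, and among the first 100, 36. The probe sets with several symbols weigh on these counts: their 26 lines repeat 8 combinations of symbols, and 2 of them equal another probe set on every array. With the 30 one-symbol probe sets alone the median was 0.55, and 15 of the 30 lay wholly above.

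**Figure D1:**
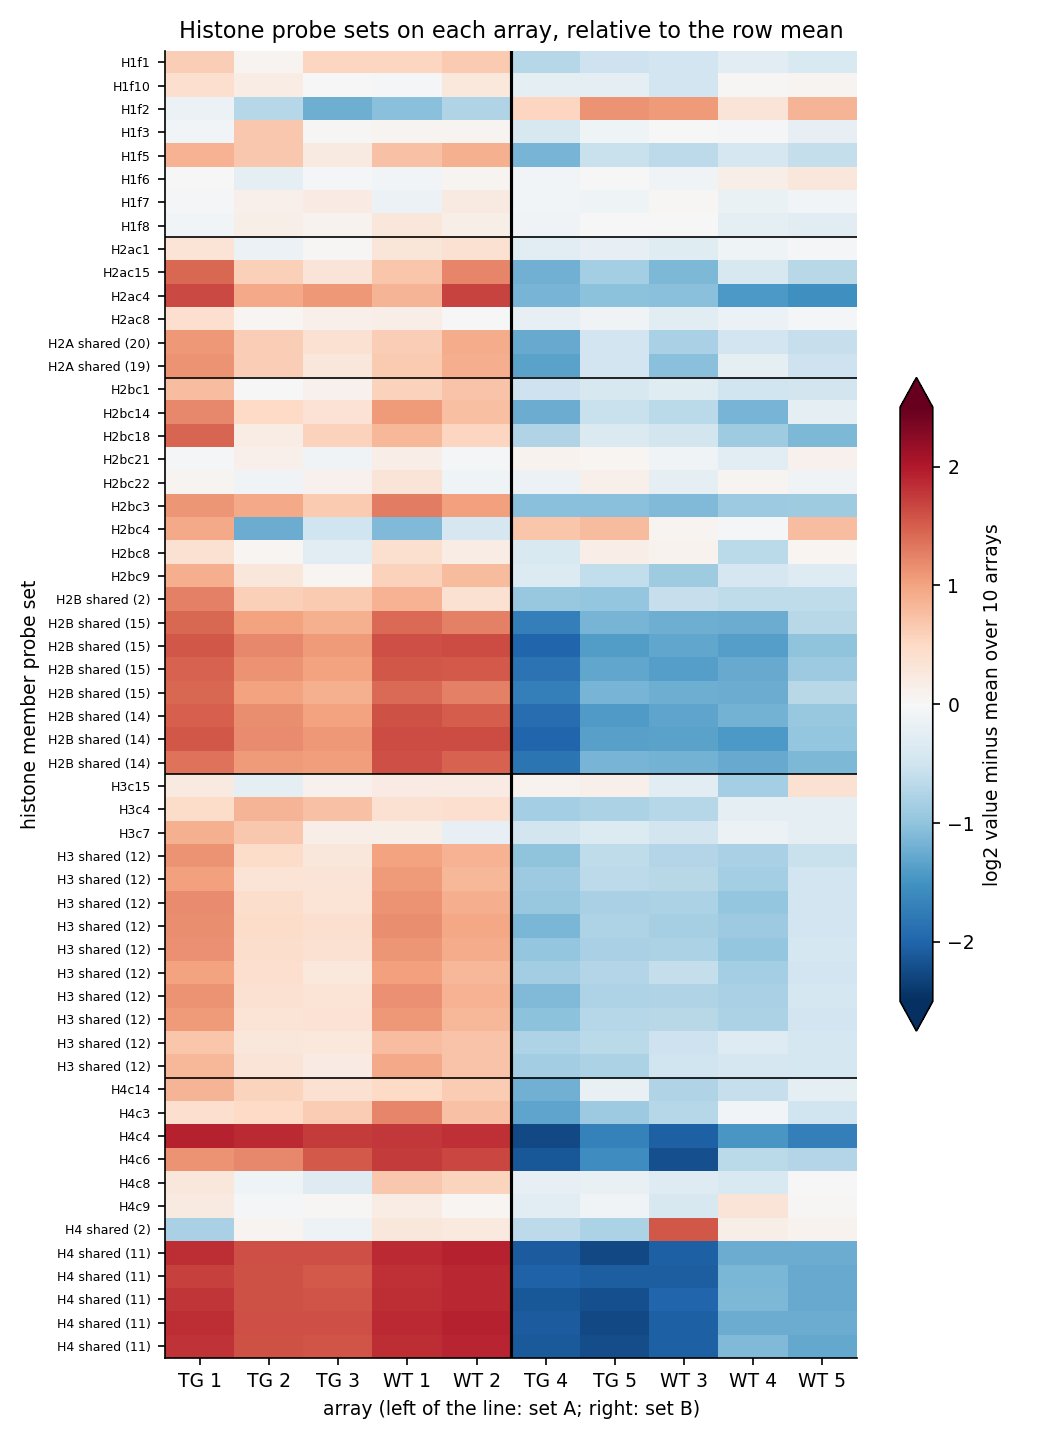
Each row is 1 of the 56 histone probe sets, each column an array (TG, transgenic; WT, wild type), and the colour gives the log2 value minus the row's mean over the 10 arrays; the number in brackets is how many symbols a shared probe set carries. Most rows are high on the 5 arrays left of the line (set A) and low on those to its right (set B), and H1f2 runs the other way.

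H4 genes showed the widest differences, with a class median of 3.16. H4c4 read 10.89, 10.84 and 10.71 on transgenic arrays 1 to 3 and 10.73 and 10.80 on wild-type arrays 1 and 2. It read 6.71 and 7.27 on transgenic arrays 4 and 5 and 6.93, 7.51 and 7.24 on wild-type arrays 3 to 5. The sets were thus 3.66 log2 units apart, or 12.6-fold, with no overlap.

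H4c6 averaged 7.68 on set A and 4.77 on set B, 7.52-fold. Within set B its wild-type arrays 4 and 5 read 5.55 and 5.50, above 4.10 and 4.68 on the transgenic arrays and 4.03 on wild-type array 3. The 5 probe sets that carry the same 11 H4 symbols averaged 11.04 and 7.55, 11.3-fold. Across the arrays they ran in near identity with each other (lowest Pearson r between a pair 0.9994 over 10 arrays that share these 2 sets), so they give little more than 1 measurement. Their wild-type arrays 4 and 5 stood out in set B too, at 8.13 and 8.04 against 7.10 to 7.27 on the other 3.

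Other H4 probe sets differed less. H4c9 averaged 6.25 and 6.09, and its sets overlapped. H4c8 averaged 4.90 and 4.46, with overlap as well. H4c3 (difference 1.40) and H4c14 (1.17) lay between, and both were wholly higher on set A. The probe set shared by H4c17 and H4c11, a dim one, differed by -0.13.

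H2B genes split. H2bc3 read 7.38, 7.23 and 6.94 on transgenic arrays 1 to 3 and 7.56 and 7.30 on wild-type arrays 1 and 2, and 5.17 to 5.39 on set B, a difference of 2.00 log2 units (4.01-fold). H2bc14 differed by 1.55, H2bc18 by 1.43, H2bc9 by 1.04 and the testis gene H2bc1 by 0.87, all without overlap. A probe set shared by H2bc6 and the linker histone gene H1f4, drawn with the H2B class, differed by 1.5, also without overlap. The probe sets shared by 15 or 14 symbols of the H2B genes averaged 5.98-fold and 6.57-fold higher on set A.

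H2bc21 read 9.30 to 9.57 on set A and 9.13 to 9.50 on set B, a difference of 0.05. H2bc22 differed by 0.12 and H2bc8 by 0.30, with overlap. H2bc4 averaged 7.29 on set A and 8.22 on set B, a difference of -0.92. On set A it read 8.70 on transgenic array 1 but 6.50, 7.26, 6.65 and 7.34 on transgenic arrays 2 and 3 and wild-type arrays 1 and 2, and on set B 7.73 to 8.55, so that array 1 alone made the sets overlap.

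Among the H2A genes, H2ac4 read 5.92 to 6.76 on set A and 3.54 to 4.04 on set B, a difference of 2.48. H2ac15 differed by 1.71 (3.28-fold), also without overlap, and the 2 shared H2A probe sets, which also carry the symbols H3c4 and H2ax, by 1.45 and 1.44. The testis gene H2ac1 differed by 0.36 with overlap. H2ac8 was dim on every array, at 2.61 to 3.31, and differed by 0.30, its lowest array of set A at 2.86 and its highest of set B at 2.85. It is 1 of 5 members in the lowest 20% of mean levels, with H2bc1, H3c7, H3c15 and the probe set of H4c17 and H4c11.

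The H3 genes were measured mostly through 10 probe sets that carry the same 12 symbols. They averaged 8.11 on set A and 6.66 on set B, 2.73-fold, with single probe sets at 1.09 to 1.65 log2 units. Of the H3 genes with a probe set of their own, H3c4 differed by 1.13 without overlap. H3c7 (0.66) and H3c15 (0.20) overlapped.

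Linker histone genes differed in both directions, with a class median of 0.27. H1f5 averaged 6.96 on set A and 5.61 on set B (1.35 higher, 2.55-fold) and H1f1 averaged 6.63 and 5.67 (0.96 higher), each without overlap. H1f2, which encodes a somatic linker histone, went the other way. On set A it read 9.44, 8.88 and 8.36 (transgenic) and 8.54 and 8.85 (wild type). On set B it read 10.13 and 10.71 (transgenic) and 10.66, 9.91 and 10.44 (wild type).

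H1f2 was therefore 2.94-fold higher on set B. It was the 1 member wholly higher there, and 5.32% of all probe sets were. H1f3 (0.30), the replacement gene H1f10 (0.33), and the germ cell genes H1f6 (-0.11), H1f7 (0.15) and H1f8 (0.24) all overlapped between the sets.

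The length of the gene was one feature that went with this division, and it was noticed after the values were seen. Of the 30 one-symbol genes, 6 span more than 1000 bases in RefSeq (1062 to 14079 bases): H1f7, H1f8, H1f10, H2bc4, H2bc21 and H2bc22. The other 24 span 375 to 903 bases. In these 6 the sets overlapped in every case, as in 21247 of the 23410 probe sets tested, with differences of -0.92 to 0.33. Of the 24 shorter genes, 15 were wholly higher on set A (3.92% of all probe sets), 1, H1f2, wholly lower (5.32% of all), and 8 overlapped. Among the longer genes H1f7, H1f8 and H1f10 are not made in step with replication, so length and kind of gene cannot be told apart there. H2bc4 and H2bc21 are known to give transcripts with a poly(A) tail as well, so length and kind of transcript cannot be told apart for them either.

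The members' median set difference was 1.45 within the transgenic arrays and 1.40 within the wild-type arrays. For H4c4 it was 3.82 and 3.53, for H2bc3 1.95 and 2.12, and for H1f2 -1.53 and -1.64. The values stood farther apart for H3c7, at 0.97 and 0.26, H3c4, at 1.49 and 0.79, H4c8, at 0.15 and 0.86, and the probe set of H4c17 and H4c11, at 0.44 and -0.33. Whether the groups differ in this was not tested.

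**Figure D2:**
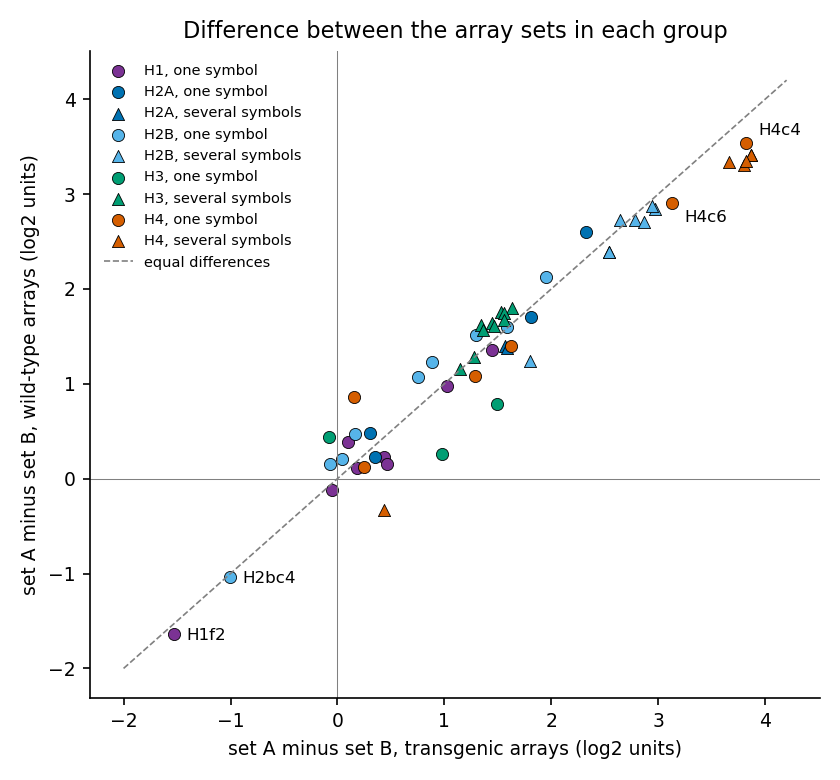
Each point is a histone probe set, with the set A minus set B difference in log2 units within the transgenic arrays on the horizontal axis and within the wild-type arrays on the vertical axis; circles have 1 symbol and triangles several. H4c4, H4c6 and the 5 probe sets shared by 11 H4 symbols sit at the upper right, H1f2 and H2bc4 at the lower left, and most points lie near the line of equal differences.

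Between transgenic and wild-type mice no histone probe set passed the test. Of the 56, 0 were called at an adjusted p of 0.05 (limma with Benjamini-Hochberg over all 23410 probe sets, of which 0.141% were called), and the smallest adjusted p was 0.426. At an unadjusted p under 0.05 there was 1, against 6.59% of all probe sets. The members' median difference, transgenic minus wild type, was 0.09 log2 units, with 43 positive and 13 negative (53.7% of all probe sets were negative), and that of all probe sets was -0.01.

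That 1 was the dim probe set of H4c17 and H4c11. It read 2.95, 3.81, 3.63, 3.10 and 2.95 on transgenic arrays 1 to 5 and 4.04, 4.0, 5.31, 3.90 and 3.84 on wild-type arrays 1 to 5. The groups did not overlap, as in 1.47% of all probe sets. The difference was -0.93 (SE 0.29, limma adjusted p = 0.426). Its mean level lay at the 14.95 percentile of the probe sets tested.

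Members that differed between the sets had wide spreads in both groups, each of which holds arrays of both sets. For H4c4 the transgenic mean was 9.28 ± 2.10 and the wild-type mean 8.64 ± 1.95 (SD, n = 5 each), a difference of 0.64 (SE 1.09, limma adjusted p = 0.977). H2ac4 averaged 5.37 ± 1.30 and 4.78 ± 1.47 (difference 0.59, SE 0.75). H1f2 averaged 9.50 ± 0.94 and 9.68 ± 0.94 (difference -0.18, SE 0.51). H2bc21 averaged 9.42 ± 0.09 and 9.37 ± 0.17, a difference of 0.05 (SE 0.09, limma adjusted p = 0.985).

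The sign of the members' median differed between fits. Set A holds 3 of 5 transgenic and 2 of 5 wild-type arrays, and the part of this in the sign was not tested. With the set as a block, 47 of the 56 had a negative difference, against 54.1% of all probe sets, and the median was -0.22, against -0.01 over all probe sets. Still 0 were called (0.389% of all probe sets were, 0.0769% as lower), the smallest adjusted p being 0.186 in limma. An unadjusted p under 0.05 with a negative difference was found for 14, against 3.69% of all (8.34% in either direction). Those 14 hold only 6 combinations of symbols, and of the 38 combinations in all, 29 were negative. Probe sets with several symbols made up 13 of the 14. Among the 30 one-symbol probe sets only 1 had such a p, near the share of 3.69% over all probe sets. The median was -0.22 within set A, where 44 of 56 were negative (51.1% of all probe sets) and 0 called (0.0171% of all), and -0.21 within set B, where 45 were negative (54.2% of all) and 0 called (0.0256% of all). Probe sets with several symbols weigh on these medians too. Over the 30 one-symbol probe sets the median was -0.08 with the block, with 21 negative. It was also -0.08 within set A and -0.08 within set B, with 19 negative in each.

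Leaving out 1 array also turned the sign of the median without the block. It was -0.15 without transgenic array 1, -0.04 without 2 and -0.01 without 3, and -0.11, -0.08 and -0.02 without wild-type arrays 3, 4 and 5. It was 0.33 and 0.23 without transgenic arrays 4 and 5 and 0.29 and 0.30 without wild-type arrays 1 and 2. With the set as a block and without transgenic array 4, 41 members were negative.

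Single genes changed in different ways with the block: H4c4 went from 0.64 to -0.10 and H1f2 from -0.18 to 0.14. With the block, the smallest adjusted p was that of H4c3, which differed by -0.57 (limma adjusted p = 0.186) against -0.27 without it. On set A it read 6.27, 6.36 and 6.49 (transgenic) against 7.08 and 6.59 (wild type), and on set B 4.55 and 4.96 against 5.15, 5.78 and 5.37. The transgenic arrays thus lay below the wild-type arrays inside each set, with differences of -0.46 among the arrays of set A and -0.68 among those of set B. The 5 probe sets with 11 H4 symbols differed by -0.46 to -0.40 with the block and by 0.25 to 0.30 without it, while that of H4c17 and H4c11 differed by -0.94 and -0.93. H2bc4 was the member with the most positive value with the block, 0.48 (limma adjusted p = 0.833), against 0.28 without it.

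**Figure D3:**
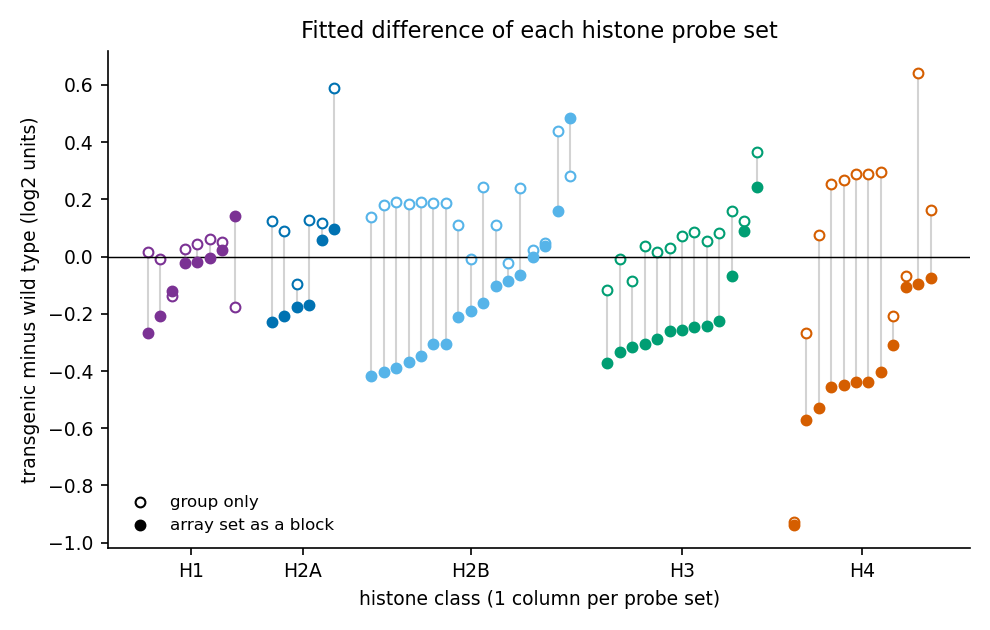
For each histone probe set, arranged by class, the open circle gives the fitted transgenic minus wild-type difference in log2 units from the group alone and the filled circle the same with the array set as a block. The open circles lie mostly above 0 and the filled ones mostly below it, and none passed the threshold.

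Genes that act on histone messages showed differences in both directions between the sets. Of 26 measured genes for the processing, translation and decay of these messages, 14 averaged higher and 12 lower on set A (median 0.05), 2 wholly higher (3.92% of all probe sets) and 3 wholly lower (5.32% of all). Slbp, the stem-loop binding protein, differed by -0.02 between the sets. It read 7.76 to 8.04 in the transgenic group and 8.11 to 8.37 in the wild-type group, without overlap, and its difference of -0.30 (SE 0.08) did not pass (limma adjusted p = 0.329). These values are of its brightest one-gene probe set, and the mean difference over all its one-gene probe sets was -0.41. Casp8ap2, known as FLASH and part of the histone locus body, differed by 0.64 between the sets, and Srrt, a partner of the cap-binding complex, by -0.94. Of the 26, 0 were called between the groups (0.141% of all probe sets were) and 1, Slbp, had an unadjusted p under 0.05 (6.59% of all).

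The 22 measured histone chaperones and supply factors had a median set difference of 0.01 and a median group difference of -0.07, with 0 called (0.141% of all probe sets) and 1 of 22 with an unadjusted p under 0.05, where 6.59% of all had one. That was Asf1b, an H3-H4 chaperone of S phase, at -0.33 (SE 0.14, limma adjusted p = 0.740). Chaf1b, a subunit of the chromatin assembly factor, differed by -0.47 between the sets, wholly lower on set A. Of the 8 measured replacement histones, whose transcripts carry a poly(A) tail, 6 averaged lower on set A (median -0.27). H2ax, which is known to give transcripts of both kinds, was wholly higher on set A, by 0.64, and Cenpa, the centromeric H3, wholly lower, at -0.60. Between the groups 7 of the 8 were negative (median -0.16), as were 53.7% of all probe sets, and 0 were called (0.141% of all). An unadjusted limma p under 0.05 was found for 2 of the 8 (6.59% of all). These were H2az2, which differed by -0.37 (SE 0.11, limma adjusted p = 0.426), and Macroh2a1, by -0.25 (SE 0.10).

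The S phase genes read lower in the transgenic group without passing the test. All 43 measured genes of licensing, the replication fork and nucleotide supply had a negative group difference (median -0.36; 53.7% of all probe sets were negative). Of these 27 had an unadjusted p under 0.05 (6.59% of all) and 0 were called in limma (0.141% of all). In 7 of the 43 the groups did not overlap, against 1.47% of all probe sets. Their median set difference was 0.04. Cdc6, which helps load the replicative helicase, read 5.90 to 6.40 in the transgenic and 6.67 to 7.41 in the wild-type group (difference -0.72, SE 0.15, limma adjusted p = 0.120, and 0.0502 with the set as a block). Chek1, a checkpoint kinase, differed by -0.61 and Dut, which clears dUTP, by -0.36. Pola1, the catalytic subunit of DNA polymerase alpha, was the 1 gene of this list wholly higher on set A, by 0.78, and Cdk2 differed most the other way, by -0.94. The 27 measured mitosis genes had medians of -0.23 between the groups and -0.07 between the sets; Cdk1 differed by -0.46 between the groups and Mki67 by 0.83 between the sets, with overlap.

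Other RNAs made without a poly(A) tail varied between the sets in both directions. Rpph1, the RNA of RNase P, read 10.69 to 11.56 on set A and 7.36 to 7.66 on set B, 3.65 log2 units apart. Scarna17, a guide RNA of Cajal bodies, averaged 10.64 and 8.56, Rmrp, the RNA of RNase MRP, 9.14 and 7.07, and Rn7sk, which restrains the elongation factor P-TEFb, 11.99 and 10.92, each without overlap. Of the 19 measured RNAs 14 averaged higher on set A (50.0% of all probe sets), 5 of them wholly (3.92% of all), and 3 were wholly lower (5.32% of all): Snora73a at -1.55, Snora73b at -1.51 and Snord22 at -1.35. Rnu6, Rnu5g, Vaultrc5 and Snord118 were dim, with mean levels at the 0.43 to 10.59 percentile of the probe sets tested. Rnu5g, Vaultrc5 and Snord118 are counted among those higher on set A. Between the groups 0 of the 19 were called (0.141% of all), and Snora74a had the smallest p (difference -0.61, SE 0.16, limma adjusted p = 0.291). Rmrp, Rn7sk, Snora73a, Snora73b and Snord22 were named after their values were seen. Whether the tail of an RNA had a part in the difference between the sets was not tested. The U7 RNA, Rnu7, which guides the cut at the end of histone messages, differed by -0.97 between the groups (SE 0.48, limma adjusted p = 0.801), with opposite signs inside the sets: 0.46 within set A and -2.45 within set B. Its set difference was 1.58 in the transgenic and -1.33 in the wild-type group.

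**Figure D4:**
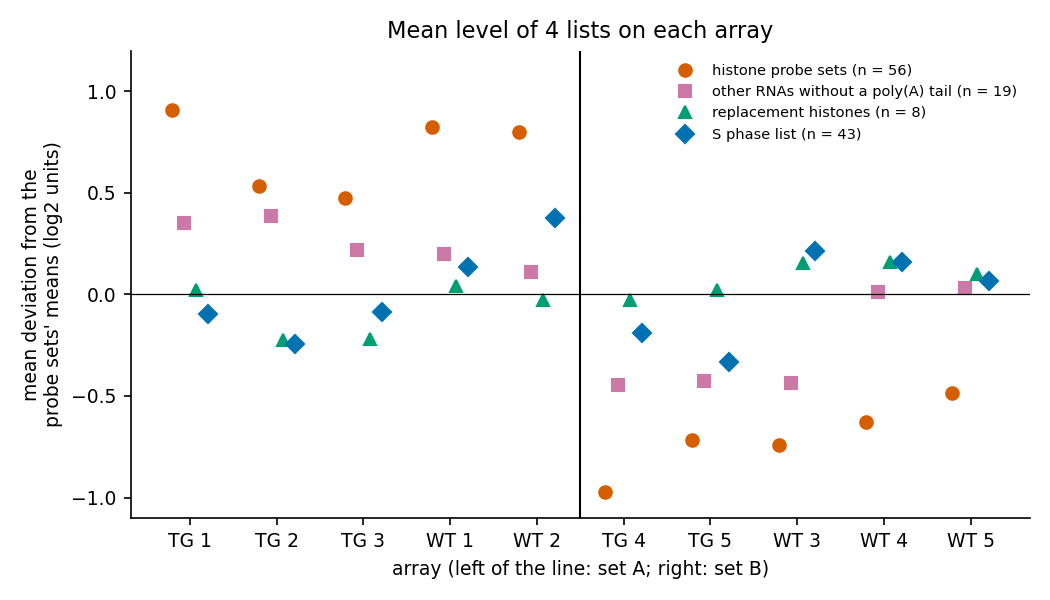
For each array (TG, transgenic; WT, wild type; set A left of the line) the points give the mean over a list of the log2 value minus the probe set's mean over 10 arrays. The histone probe sets run from 0.48 to 0.91 on set A and from -0.97 to -0.48 on set B, while the S phase list is below 0 on all 5 transgenic and above 0 on all 5 wild-type arrays.

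The cells' labels were checked against marker lists. The 11 measured HSC genes, Kit, Slamf1 and Procr among them, had mean levels with a median at the 89.7 percentile of the probe sets tested, against 36.8 for 7 B cell, 36.6 for 8 T and NK cell and 32.8 for 13 granulocyte and monocyte genes. It was 70.4 for 5 megakaryocyte and platelet genes and 45.3 for 8 erythroid genes. The mean deviation of 5 megakaryocyte and platelet genes ran from -0.76 to -0.31 in the transgenic and from 0.23 to 0.89 in the wild-type group, and that of the granulocyte and monocyte genes -0.16 to 0.85 and -0.34 to -0.03. Only transgenic arrays 4 (0.27) and 5 (0.85), which lie in set B, were above 0 for the granulocyte and monocyte genes. The set means of these lists were 0.03 and -0.03, and -0.18 and 0.18. Their part in the histone values was not tested. Bulk arrays cannot tell fewer cells in S phase from less histone RNA per cell. The Sox17 probe set read 4.25 to 4.51 in the transgenic and 4.02 to 4.30 in the wild-type group (difference 0.16, SE 0.09, limma adjusted p = 0.855), so it gives no check of the group labels.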

How the data were processed

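Values were taken as deposited: 1 table on a log2 scale, with 35556 probe sets on 10 arrays. Per the submitters' processing notes these are robust multi-array average (RMA) values, with affy and limma also named; no version, setting or genome build is given in the sources used here. RMA gives arrays like distributions (medians 5.46 to 5.56), and it compresses differences between low values. Per the labels' protocols, the WT-Ovation Pico kit served to amplify the RNA. Arrays carry no read depth; their number limits precision.

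Groups and replicate numbers came from the sample titles. Transgenic was compared with wild type in limma 3.58.1 (R 4.3.3; lmFit and eBayes, two-sided) over the 23410 probe sets with a symbol in the platform annotation, with Benjamini-Hochberg adjustment and a threshold of 0.05; the code was tested on simulated data. All 66 symbols of the pattern were found in RefSeq (GRCm38.p6), and 26 of the 30 one-symbol genes had a promoter window. For each context gene the brightest of its one-gene probe sets was used.

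Named were, in each class, the 2 one-symbol probe sets with the smallest p, the 2 with the largest and the 1 with the smallest set difference, all H1 members, and of each context list up to 3 genes by p and 2 by set difference; any member outside this was chosen after its values were seen. Members, array sets and lists were chosen with earlier results of these data known. Alternatives were the replicate number or array set as a block, each set alone, quantile normalization, median centring, filters, a floor at the 20th percentile, array weights, trended and robust eBayes, subsets of members and leaving out each array. The fit that blocks on array set and leaves out transgenic array 4 was added after seeing the data.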

Additional observations from a re-analysis of the deposited data

Results flagged for a closer look

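In each of 46 groups of 5 arrays, those of the named histone genes, the highest and lowest values were set against the others by Dixon's criterion. For values of a single normal spread chance marks about 1 in 20 groups, and 2 were marked here. Each group holds arrays of both sets, so that rate does not hold for members that differ between the sets. H1f6, the testis linker histone gene, read 4.45 on transgenic array 2 against 4.61 to 4.65 on the other transgenic arrays. H3c15 read 3.52 on the same array against 3.84 to 3.97. Their mean levels lay at the 29.57 percentile of the probe sets tested for H1f6 and at the 14.9 percentile for H3c15.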

How the results depend on the processing

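No histone probe set was called between the groups under any of the 24 alternatives run, while the number called among all probe sets moved from 33 to 91 with a block for the array set, 4 on set A alone, 6 on set B alone, 15 over all probe sets of the table, and 15 to 71 when 1 array was left out (71 without transgenic array 2, 15 without transgenic array 4). The members' median group difference ran from -0.22 to 0.33, its sign differing from the main value in 10 of 24. With the replicate number as a block the median stayed at 0.09, with 0 members called. Arrays with the same number deviated together in pairs 1, 2, 4 and 5 (r of 0.11 to 0.35) but not in pair 3 (-0.14). The arrays of pairs 1 and 2 lie in set A and those of pairs 4 and 5 in set B, while pair 3 is split between the sets. These values therefore cannot show whether the numbers pair the samples. The set difference, 1.43 with 40 members apart, was 0.55 with 15 apart for one-symbol members, and 1.34 to 1.53 with 40 to 42 apart when 1 array was left out. The median of the message processing list was -0.01, positive in 6 of 25 alternatives and highest on set B alone (0.0483); that of the other RNAs without a tail was 0.11 and turned in 1 of 25, to -0.15 on set B alone. Without transgenic array 4 and with the set as a block, 1 gene of the S phase list was called in place of 0: Uhrf1, at -0.98 (SE 0.15, limma adjusted p = 0.0446), named after its value was seen. The causes of these changes were not tested.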

Other observations

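The one-symbol histone genes were also described by their place in the genome. Of the 66 genes named by the probe sets, 53 lie on 1 chromosome in RefSeq, 10 together on a second, and 3 elsewhere. Of the 23 one-symbol genes on the first, 13 were wholly higher on set A (3.92% of all probe sets) and 1 wholly lower (5.32% of all). The other 9 overlapped, and the median difference was 0.87. Of the 4 on the second, H2bc18 and H4c14 were wholly higher and H2bc21 and H3c15 overlapped (median 0.69). The 3 elsewhere, H1f7, H1f8 and H1f10, overlapped. These are values of chosen sets of arrays, with no test.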
